A study of Homo sapiens with 12 samples.

Results

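The protein kinase C family was followed as 9 genes of the 59611 gene symbols in the count table. They were the conventional isoforms PRKCA and PRKCB, the calcium-independent isoforms PRKCD, PRKCE, PRKCH and PRKCQ, the atypical isoforms PRKCI and PRKCZ, and the related protein kinase D gene PRKD2. The genes were chosen by symbol as members of the family, with the difference of PRKCB between control and edited 697 cells in view. Values of the 697 comparison, of its difference from the KOPN-8 comparison and of the PRKCB baseline are therefore given as a description, with no test. The KOPN-8 comparison and the baseline of the other 8 genes did not enter the choice and were tested.

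Messenger RNA was counted in 697 and KOPN-8, established human cell lines of B-lineage acute lymphoblastic leukaemia. Each line had 3 libraries of an empty-vector control with wild-type SETD2 and 3 libraries of 1 clone labelled as a SETD2 heterozygous knockout, clone BM_B in 697 and clone BA in KOPN-8, so that 12 libraries fell into 4 groups. These clones are called edited here, and an edit cannot be told apart from other differences of its clone; the labels do not state whether a control was also 1 clone. SETD2 encodes the main enzyme that trimethylates histone H3 at lysine 36, and the comparison asks how expression differs in its partial absence.

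Conventional isoforms are switched on by calcium and diacylglycerol, and the calcium-independent isoforms by diacylglycerol alone. Both lipid and calcium signals come from phospholipase C, with PLCG2 as the form that acts below the antigen receptor of B cells. Atypical isoforms bind neither signal and work in polarity and scaffold complexes, while protein kinase D is itself phosphorylated by the calcium-independent isoforms. In B cells PRKCB links the receptor to NF-kB, the place that PRKCQ holds in T cells.

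Depth ran from 10378769 to 18278662 counts per library, so that an observed 0 leaves room for up to 3 counts, between 0.159 and 0.292 CPM (counts scaled to a common library size with TMM). Mean SETD2 mRNA was 161 CPM in the 697 control and 219 CPM in the edited 697 clone (log2 fold change 0.44, SE 0.0692, edgeR quasi-likelihood adjusted p = 0.000102), and at 169 and 158 CPM in KOPN-8 (-0.10, adjusted p = 0.309), so the mRNA level does not check the label of a heterozygous knockout. All 10 B-lineage markers were detected in every group. Their sum ranged over 4430–4740 CPM (697 control), 4910–5170 CPM (697 edited), 4050–4150 CPM (KOPN-8 control) and 4280–4330 CPM (KOPN-8 edited). The sums hide unlike members. DNTT stood at 1970 and 2440 CPM in control and edited 697 and at 2.02 and 0.402 CPM in control and edited KOPN-8. MME stood at 3.71 and 9.3 CPM in 697 and at 967 and 759 CPM in KOPN-8, in the same order. Libraries split by line along the leading principal component (94.4% of variance).

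The stretch just before the start of 3 of the genes is shown: PRKCB for its difference in 697, PRKCH for its change in KOPN-8, and PRKCA as the other conventional isoform, with the reverse pattern of PRKCB between the lines. Each is the 250 bases before a RefSeq gene start on GRCh38.p14, 5′ to 3′ on the plus strand, at chr16:23835733-23835982 (PRKCB), chr17:66302363-66302612 (PRKCA) and chr14:61321329-61321578 (PRKCH). Capitals mark 3 kinds of letters that were searched on both strands: the octamer ATGCAAAT, bound by POU-family factors, the E-box CAGCTG, which reads the same on both strands, and the GC box GGGCGG.
PRKCB: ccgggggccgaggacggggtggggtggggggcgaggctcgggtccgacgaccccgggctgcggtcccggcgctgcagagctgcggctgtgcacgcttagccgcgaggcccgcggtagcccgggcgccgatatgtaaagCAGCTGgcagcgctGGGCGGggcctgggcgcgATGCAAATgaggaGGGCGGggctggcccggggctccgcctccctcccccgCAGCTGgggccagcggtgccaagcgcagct
PRKCA: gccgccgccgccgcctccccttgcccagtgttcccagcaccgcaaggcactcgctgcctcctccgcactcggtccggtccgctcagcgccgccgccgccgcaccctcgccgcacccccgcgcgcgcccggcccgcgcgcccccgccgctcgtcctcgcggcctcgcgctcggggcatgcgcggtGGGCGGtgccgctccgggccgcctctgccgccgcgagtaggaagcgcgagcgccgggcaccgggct
PRKCH: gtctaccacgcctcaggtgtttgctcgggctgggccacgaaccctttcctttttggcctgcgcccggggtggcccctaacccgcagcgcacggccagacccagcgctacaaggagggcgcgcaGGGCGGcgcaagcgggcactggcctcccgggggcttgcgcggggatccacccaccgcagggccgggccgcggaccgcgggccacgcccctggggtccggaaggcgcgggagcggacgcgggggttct

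All 3 windows were rich in GC, at 77.2% in PRKCB, 82.0% in PRKCA and 75.2% in PRKCH. They held 30, 47 and 30 CG dinucleotides, against a median of 11 over the 35116 RefSeq windows of that length. In PRKCB the octamer began 80 bases before the start, the E-boxes 112 and 30 bases before it and the GC boxes 98 and 67 bases before it. Among the 15 windows that RefSeq lists for the 9 genes, 1 held the octamer (PRKCB), 3 the E-box and 12 the GC box, and the shares over all windows were 1.63%, 14.0% and 42.6%. The TATA motif TATAAA was also searched. It lay in 10.7% of all windows and in none of the 3 printed here. These matches describe letters in a window and not bound sites.

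PRKCB, the conventional isoform that couples the B-cell receptor to NF-kB, was close to the detection limit in control 697 cells and was measured in the other 3 groups. Control 697 libraries held 0.654, 0.242 and 0.527 CPM (0.474 ± 0.211, SD, n = 3), from 10, 4 and 7 counts. The edited 697 libraries held 9.97, 5.74 and 10.3 CPM (8.68 ± 2.55, SD, n = 3), from 134, 78 and 106 counts. The lowest edited library was above the highest control, and the second edited library lay apart from the other two. The fitted difference was 18.2-fold, a log2 fold change of 4.18 (SE 0.302), which ran from 3.84 to 4.51 when each 697 library was left out in turn. Summed over libraries, 318 counts in edited against 21 in control cells gave a ratio of 18.3 with a 95% counting interval of 11.8 to 30.0. As this contrast chose the genes, the value is a description.

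In KOPN-8, PRKCB was expressed with and without the edit. Control libraries held 12.6, 10.4 and 11.0 CPM (11.4 ± 1.13, SD, n = 3), and edited libraries held 8.37, 10.8 and 9.48 CPM (9.55 ± 1.22, SD, n = 3). The ranges overlapped, and the log2 difference of -0.25 (SE 0.175) did not pass the edgeR quasi-likelihood test (adjusted p = 0.315). From highest to lowest, the groups were control KOPN-8, edited KOPN-8, edited 697 and control 697, and only the last did not overlap its neighbour. Edited KOPN-8 against edited 697 gave a count ratio of 1.1 (95% counting interval 0.957 to 1.28), while control KOPN-8 against control 697 gave 24.2 (15.7 to 39.4). Because bulk libraries were counted, fewer cells with a transcript and less of it per cell cannot be told apart, for PRKCB or any other gene here.

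PRKCA, the other conventional isoform and a broadly expressed kinase, had the reverse pattern between the lines. Control 697 libraries held 60.9, 65.6 and 66.5 CPM (64.3 ± 3.03, SD, n = 3) and control KOPN-8 libraries 8.01, 8.33 and 7.12 CPM (7.82 ± 0.627, SD, n = 3). It was 8.24-fold lower in KOPN-8 (log2 fold change -3.04, SE 0.095, edgeR quasi-likelihood adjusted p = 3.84e-19). The edited KOPN-8 libraries, at 5.03, 4.85 and 4.77 CPM (4.88 ± 0.137, SD, n = 3), all lay below their controls, a log2 change of -0.67 (SE 0.121, edgeR quasi-likelihood adjusted p = 0.000118). In edited 697 it stood at 66.5, 74.6 and 76.3 CPM (72.5 ± 5.25, SD, n = 3), 0.17 above its control on the log2 scale (SE 0.0787). The ranges of the 697 groups met at 66.5 CPM without overlapping before rounding.

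**Figure D1:**
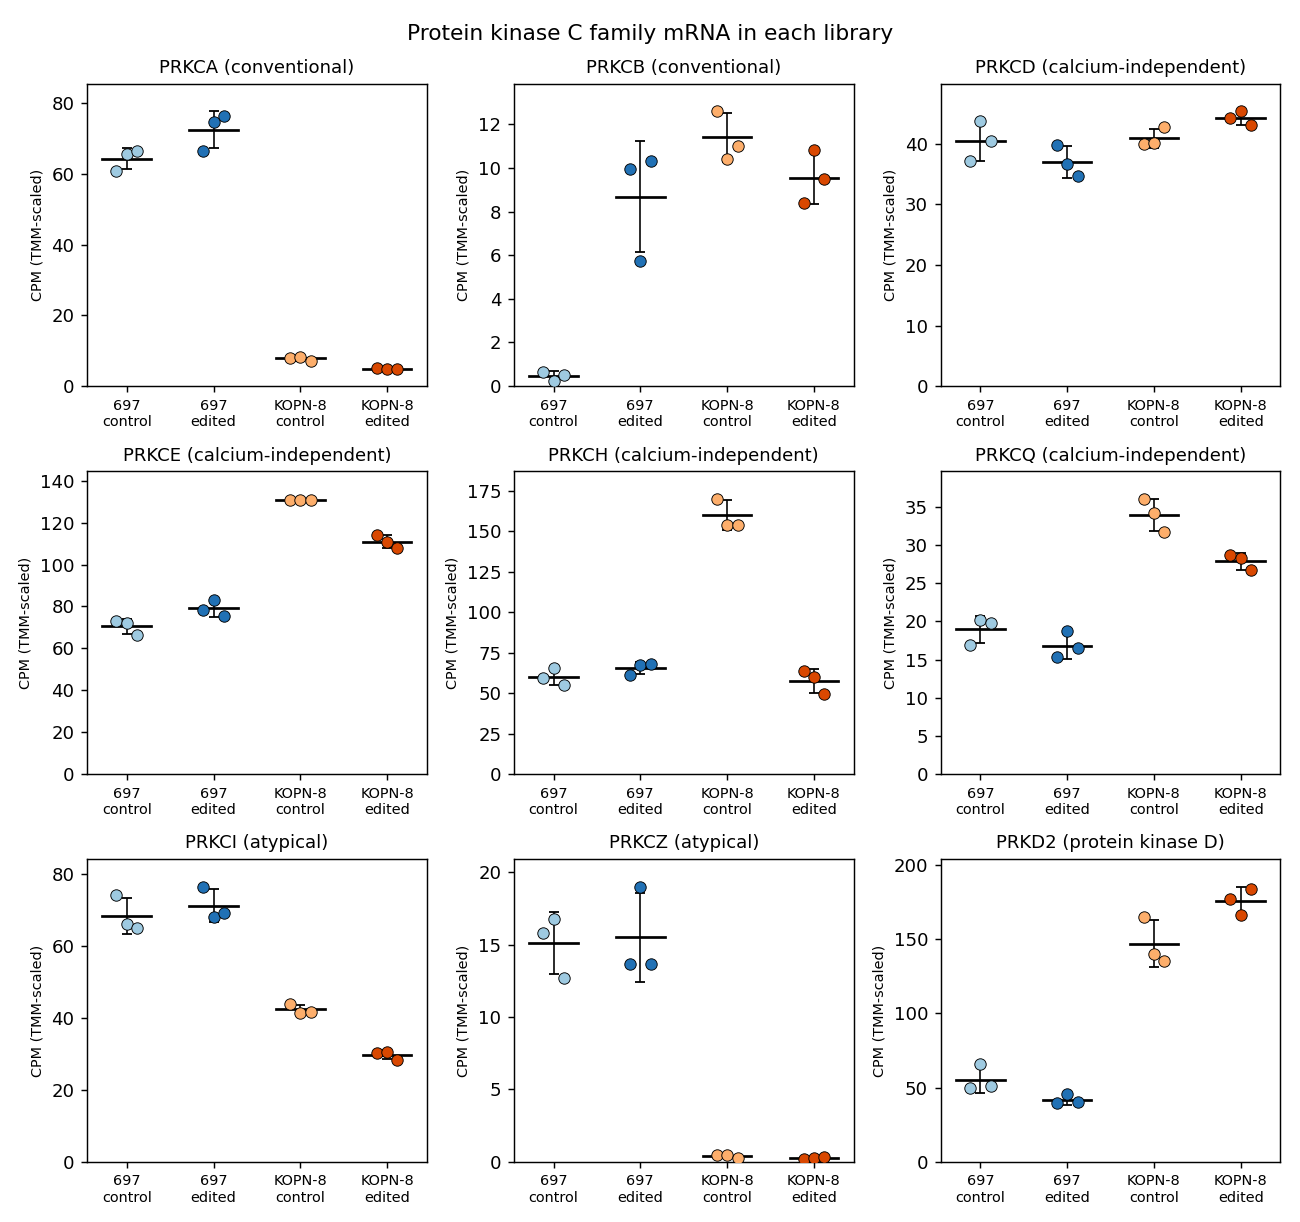
Level of each gene in every library, in CPM (TMM-scaled) on a linear axis from 0, with 1 panel per gene and 1 point per library; horizontal lines are means and bars SDs over 3 libraries. PRKCB is at most 0.654 CPM in control 697 and at least 5.74 CPM in the other groups, and PRKCZ is at most 0.466 CPM in both KOPN-8 groups and at least 12.7 CPM in both 697 groups.

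In the KOPN-8 comparison, the test for the family, 6 of the 9 genes (66.7%) were called at an adjusted p under 0.05, 1 higher and 5 lower. The background was 28.7% of the 15218 genes tested, 11.5% higher and 17.2% lower. The median log2 fold change of the 9 genes was -0.28, against 0 over all genes tested. Control and edited ranges lay apart for 7 of the 9 genes, 2 higher and 5 lower, against a background of 45.1%. PRKCA, PRKCE, PRKCH, PRKCI and PRKCQ fell, PRKD2 rose, and PRKCB, PRKCD and PRKCZ did not pass.

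PRKCH, the eta isoform of the calcium-independent class, had the largest called change of the 9 genes in KOPN-8. Control libraries held 170, 154 and 154 CPM (160 ± 9.28, SD, n = 3), and edited libraries held 63.4, 59.9 and 49.4 CPM (57.6 ± 7.29, SD, n = 3). Every edited library was below every control, a 2.77-fold fall (log2 fold change -1.47, SE 0.086, edgeR quasi-likelihood adjusted p = 2.66e-12). With each KOPN-8 library left out in turn the change ran from -1.55 to -1.37. The 697 libraries held 59.4, 65.2 and 55.0 CPM in controls (59.8 ± 5.11, SD, n = 3) and 61.0, 67.5 and 67.8 CPM in the edited clone (65.5 ± 3.85, SD, n = 3), a log2 difference of 0.13 (SE 0.0887). Among these the ranges of edited KOPN-8, control 697 and edited 697 overlapped their neighbours in the order of means, and only control KOPN-8 stood apart, with a log2 difference of 1.41 from control 697 (SE 0.0862, edgeR quasi-likelihood adjusted p = 2.73e-13).

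PRKCE, the epsilon isoform, was higher in KOPN-8 than in 697 and fell by a small step in edited KOPN-8. Control KOPN-8 libraries held 131, 131 and 131 CPM (131 ± 0.373, SD, n = 3) and edited ones 114, 111 and 108 CPM (111 ± 3.05, SD, n = 3), a change of -0.24 (SE 0.0643, edgeR quasi-likelihood adjusted p = 0.00568). In 697 it stood at 73.0, 72.1 and 66.3 CPM in controls (70.5 ± 3.66, SD, n = 3) and at 78.4, 83.3 and 75.6 CPM in the edited clone (79.1 ± 3.89, SD, n = 3). All 3 edited 697 libraries were above the controls, by a log2 value of 0.17 (SE 0.0673). The 4 groups did not overlap, in the order control KOPN-8, edited KOPN-8, edited 697 and control 697.

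PRKCQ, the theta isoform that signals at the T-cell synapse, was a gene of moderate level in these B-lineage lines. Control KOPN-8 libraries held 36.0, 34.2 and 31.8 CPM (34.0 ± 2.07, SD, n = 3) and edited ones 28.7, 28.3 and 26.7 CPM (27.9 ± 1.09, SD, n = 3). The log2 change of -0.28 (SE 0.095) passed the edgeR quasi-likelihood test at an adjusted p of 0.0265. It missed it without control replicate 1 (adjusted p = 0.119), control replicate 2 (0.0779), edited replicate 2 (0.0544) or edited replicate 3 (0.0933) and with no filter on low counts (0.0541), and over all alternatives the adjusted p ran from 0.00571 to 0.119. In 697 it stood at 16.9, 20.2 and 19.8 CPM in controls (19.0 ± 1.77, SD, n = 3) and at 15.3, 18.7 and 16.5 CPM in the edited clone (16.8 ± 1.75, SD, n = 3), with overlapping ranges. The antisense gene PRKCQ-AS1 lay at mean levels of 21.9, 20.0, 19.2 and 15.5 CPM in control 697, edited 697, control KOPN-8 and edited KOPN-8. The kit kept strand, but how strand was counted is not given, so reads of PRKCQ and of its antisense gene may not be fully separated.

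Because PRKCQ and PRKCH are well known from T cells, T-cell markers are given beside them. Over 9 markers their sum ranged over 1.05–2.35 CPM (697 control), 1.55–2.14 CPM (697 edited), 101–117 CPM (KOPN-8 control) and 65.9–78.8 CPM (KOPN-8 edited). In KOPN-8 this was mostly the T-cell receptor constant segments, with TRAC falling from 87.7 to 54.2 CPM (-0.69, SE 0.105, edgeR quasi-likelihood adjusted p = 1.8e-05), while the CD3 chain gene CD3D was at 0 counts in all 4 groups. Markers of NK cells summed to 66.8 to 75.5 CPM in control and 73.3 to 89.0 CPM in edited KOPN-8. These KOPN-8 sums came nearly all from NKG7 (55.3 and 60.2 CPM) and PRF1 (15.8 and 20.3 CPM). The other NK markers, GNLY, KLRD1, KLRF1, NCR1 and GZMB, held at most 4 counts in each KOPN-8 group. In 697 the NK sums were 3.86 to 5.2 CPM in control and 8.77 to 12.2 CPM in edited cells. These 697 sums came nearly all from NKG7, at means of 4.51 and 10.8 CPM. The other NK markers were at 0 counts in control 697, and in edited 697 only PRF1 among them was detected, with 1 count. Myeloid markers summed to 47.9 to 49.2 and 38.5 to 47.1 CPM in KOPN-8, led by CD33, and to at most 2.18 CPM in 697, with S100A8, S100A9 and FCGR3A at 0 counts in every group. The libraries are of established lines, and whether other cells added to any of these sums or to the kinase levels was not tested.

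PRKCD, the delta isoform, which restrains B-cell activation, was nearly level over the study. It stood at 37.2, 43.8 and 40.4 CPM in control 697 (40.5 ± 3.27, SD, n = 3), at 39.8, 36.6 and 34.7 CPM in edited 697 (37.0 ± 2.58, SD, n = 3), at 39.9, 40.1 and 42.8 CPM in control KOPN-8 (40.9 ± 1.6, SD, n = 3) and at 44.2, 45.4 and 43.1 CPM in edited KOPN-8 (44.2 ± 1.12, SD, n = 3). The KOPN-8 ranges lay apart, but the difference of 0.11 (SE 0.0804) did not pass the test (edgeR quasi-likelihood adjusted p = 0.344). The control lines differed by 0.02 (SE 0.0813, adjusted p = 0.864).

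PRKCZ, the zeta isoform of the atypical class, was a transcript of 697. Control 697 libraries held 15.8, 16.8 and 12.7 CPM (15.1 ± 2.14, SD, n = 3) and edited ones 13.7, 19.0 and 13.7 CPM (15.5 ± 3.05, SD, n = 3), with overlapping ranges. Control KOPN-8 libraries held 6, 8 and 5 counts, or 0.445, 0.466 and 0.272 CPM (0.394 ± 0.107, SD, n = 3), and edited ones 4, 4 and 6 counts, or 0.212, 0.294 and 0.333 CPM (0.28 ± 0.0616, SD, n = 3). Control 697 against control KOPN-8 gave a count ratio of 39.3 (95% counting interval 25.0 to 65.6), and the fitted KOPN-8 minus 697 difference was -5.25 (SE 0.247, edgeR quasi-likelihood adjusted p = 1.49e-15). A KOPN-8 change of -0.47 (SE 0.504, adjusted p = 0.539) was not detectable at these counts.

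PRKCI, the iota isoform that binds the PAR polarity proteins, was the atypical isoform of both lines. It stood at 43.9, 41.5 and 41.8 CPM in control KOPN-8 (42.4 ± 1.31, SD, n = 3) and at 30.4, 30.6 and 28.3 CPM in edited KOPN-8 (29.8 ± 1.25, SD, n = 3). All edited libraries were lower, a log2 change of -0.51 (SE 0.0801, edgeR quasi-likelihood adjusted p = 2.21e-05). In 697 the controls held 74.1, 66.2 and 64.9 CPM (68.4 ± 5.02, SD, n = 3) and the edited libraries 76.5, 68.0 and 69.2 CPM (71.2 ± 4.58, SD, n = 3), with overlapping ranges. Control KOPN-8 was lower than control 697, with a log2 difference of -0.69 (SE 0.0769, edgeR quasi-likelihood adjusted p = 1.99e-08).

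PRKD2, a protein kinase D of lymphocytes and a substrate of the calcium-independent isoforms, was higher in KOPN-8 than in 697. Control KOPN-8 libraries held 165, 140 and 135 CPM (147 ± 15.8, SD, n = 3) and edited ones 177, 166 and 184 CPM (176 ± 9.34, SD, n = 3). The lowest edited library was just above the highest control, and the 1.2-fold rise (0.26, SE 0.0933) passed the edgeR quasi-likelihood test at an adjusted p of 0.0393. It missed it without control replicate 2 (adjusted p = 0.148), control replicate 3 (0.168), edited replicate 1 (0.0951) or edited replicate 3 (0.128), within a range of 0.000986 to 0.168 over all alternatives. In 697 the controls held 49.4, 65.9 and 50.8 CPM (55.4 ± 9.15, SD, n = 3) and the edited libraries 39.4, 45.6 and 40.4 CPM (41.8 ± 3.37, SD, n = 3). There all edited libraries were lower, by 1.33-fold (-0.41, SE 0.104).

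The 697 changes of the 9 genes were not tested, since this contrast set the choice. Their median was 0.06 on the log2 scale, against 0 over all genes. Control and edited ranges lay apart for 4 of them, with PRKCA, PRKCB and PRKCE on the higher side and PRKD2 on the lower, where ranges lay apart for 24.1% of all genes, and nothing is read from this count. Over all genes, 9.45% were called, 4.85% higher and 4.6% lower (1438 genes, and 2319 with the replicate number as a block). The log2 changes of KOPN-8 minus those of 697 were -4.43 for PRKCB, -1.60 for PRKCH, -0.85 for PRKCA, -0.57 for PRKCI, -0.51 for PRKCZ, -0.41 for PRKCE, -0.11 for PRKCQ, 0.24 for PRKCD and 0.67 for PRKD2, and were not tested because they hold the 697 change. Over all genes tested, 19.5% were called for this difference, 7.46% with a positive and 12.1% with a negative sign.

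**Figure D2:**
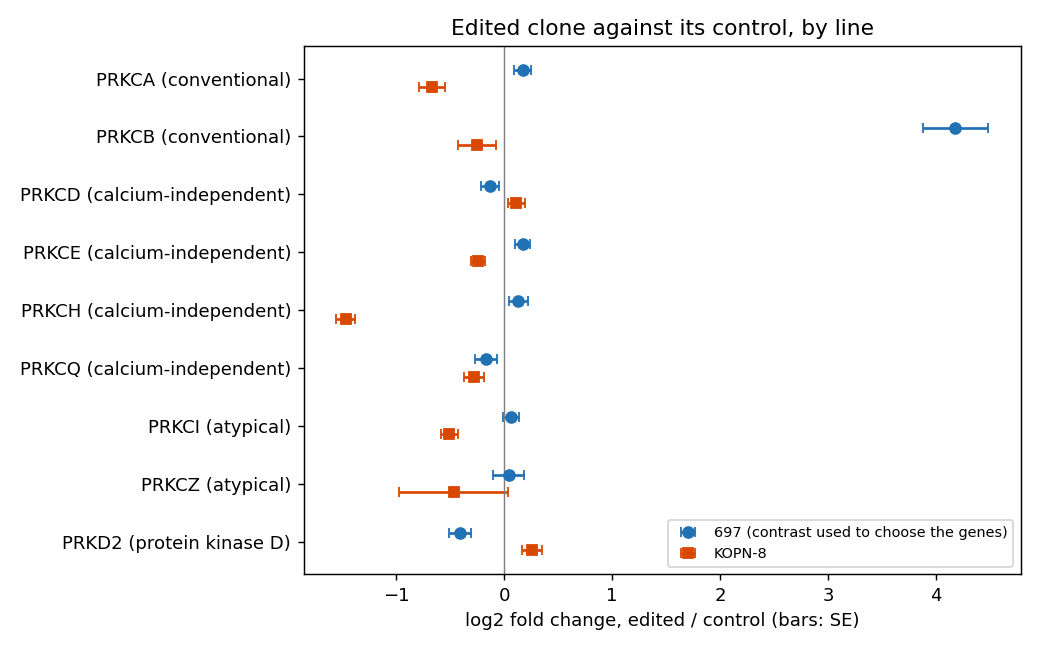
Log2 fold change of edited over control libraries for each gene (horizontal axis) in 697 (circles) and KOPN-8 (squares), with SEs as bars and 3 libraries per group. PRKCB at 4.18 in 697 and PRKCH at -1.47 in KOPN-8 lie farthest from 0, and PRKCQ alone lies on the same side of 0 in both lines.

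Between the control lines, 7 of the 8 genes tested (87.5%) were called, 4 higher in KOPN-8 and 3 lower, where 73.3% of all genes were called, 36.6% higher and 36.7% lower. The median of the 8 genes was 0.43, against -0.01 over all genes. PRKCE (0.89), PRKCH (1.41), PRKCQ (0.84) and PRKD2 (1.40) were higher and PRKCA (-3.04), PRKCI (-0.69) and PRKCZ (-5.25) lower, with edgeR quasi-likelihood adjusted p-values between 3.84e-19 (PRKCA) and 4.83e-08 (PRKCQ). The baseline comparison and the comparisons of edited with control cells share the control libraries, so their values are not independent.

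Levels were set against each other only per kilobase of exon model. The summed level of the 9 genes was 89.9 RPKM in control 697, 90.1 in edited 697, 139 in control KOPN-8 and 112 in edited KOPN-8. The 4 calcium-independent isoforms made up 52.8%, 53.9%, 64.2% and 51.4% of this sum in the same order. Atypical isoforms held 22.7% and 23.5% in 697 and 6.29% and 5.48% in KOPN-8, and the conventional ones 8.26%, 10.4%, 1.66% and 1.56%.

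With all exons as the length, PRKCH was the largest contributor in control KOPN-8, with 31.0% ± 0.213 (SD, n = 3) of the length-scaled reads. It held 13.9% ± 1.56 in edited KOPN-8. PRKD2 held 27.9% ± 1.5 in control and 41.6% ± 2.34 in edited KOPN-8, where it came first. With the longest coding transcript in place of all exons as the length, PRKCH and PRKD2 held 30.1% and 29.8% ± 1.56 in control KOPN-8. By this length their order in control KOPN-8 was not clear of the spread. In control 697 PRKCH held 18.0% and PRKD2 16.2% ± 1.68, or 17.8% and 17.7% by the longest coding transcript, so their order there was not clear of the spread. In edited 697 PRKCH held 19.6% and came first by either length.

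Among the conventional isoforms alone, PRKCB made up 0.803% ± 0.38 (SD, n = 3) of length-scaled PRKCA and PRKCB in control 697 and 11.5% ± 3.35 in edited 697. It made up 61.2% ± 3.06 in control and 67.9% ± 3.22 in edited KOPN-8. PRKCA was thus the more abundant of the pair in both 697 groups, and PRKCB in both KOPN-8 groups. Of all 9 genes, PRKCB held 0.0668% in control 697, 1.21% in edited 697, 1.01% in control KOPN-8 and 1.06% in edited KOPN-8.

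**Figure D3:**
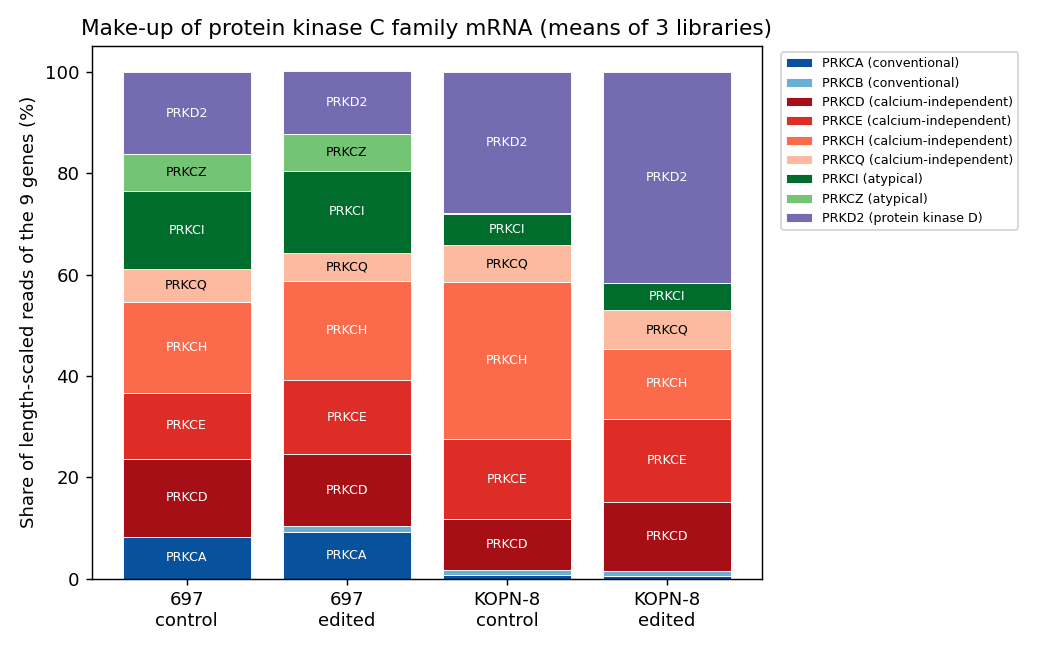
Share of each gene in the length-scaled reads of the 9 genes (vertical axis, percent; means of 3 libraries, so a stack may miss 100 by rounding), by group. PRKCA and PRKCZ hold 8.2% and 7.28% in control 697 and 0.643% and 0.123% in control KOPN-8, and the PRKCH share is 31.0% in control and 13.9% in edited KOPN-8.

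Of 6 relatives outside the 9 genes, 5 were tested. PKN3, a kinase of the related PKN branch, fell from 40.5 to 28.4 CPM in KOPN-8 (-0.51, SE 0.108, edgeR quasi-likelihood adjusted p = 0.000779), with 17.1 and 19.1 CPM in 697. PRKD3 stood at means of 144, 153, 117 and 124 CPM in control 697, edited 697, control KOPN-8 and edited KOPN-8 and PKN2 at 69.9, 74.8, 57.2 and 58.3 CPM. PRKD1 had 1 count in all libraries together and was not tested. In 697 the edgeR test called 0 of the 5, with 0 at an unadjusted p under 0.05 and 0 by DESeq2.

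Other genes of the pathway were followed in 10 lists with 120 genes, 103 of them tested. In 697, 7 were called higher and 6 lower (12.6%, median 0), and 11 higher and 9 lower with the replicate block; without control replicate 2, 3 were lower. In KOPN-8, 19 were called higher and 27 lower (44.7%, median -0.07). The backgrounds were 9.45% and 28.7%, as above. Values below are mean CPM and edgeR log2 fold changes with adjusted p.

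Upstream, 4 of 11 tested phospholipase C genes were called in KOPN-8, 2 in each direction (1 lower without edited replicate 1 or edited replicate 2), and 1 in 697. PLCG2, the isoform below the B-cell antigen receptor, rose from 117 to 141 CPM in edited KOPN-8 (0.27, adjusted p = 0.00381). PLCG1, the form used by T-cell and growth factor receptors, fell there from 27.3 to 15.6 CPM (-0.80, adjusted p = 5.91e-08). In control and edited 697, PLCG1 stood at 275 and 282 CPM and PLCG2 at 40.3 and 45.8 CPM. In 697, PLCB1, a form used by G protein-coupled receptors, rose from 18.7 to 35.5 CPM (0.92, adjusted p = 1.92e-05). Of 13 receptor kinases and adaptors, 4 rose and 3 fell in KOPN-8, and 1 rose and 1 fell in 697, where the replicate block gave 3 and 2. In 697, 2 were called higher without control replicate 1 or edited replicate 1, and 2 lower without control replicate 1 or control replicate 3. The PI3K adaptor PIK3AP1 rose from 284 to 479 CPM (0.75, adjusted p = 4.4e-09) in KOPN-8. In 697 the linker BLNK rose from 188 to 243 CPM (0.37, adjusted p = 0.00207), and the receptor chain CD79A fell from 319 to 227 CPM (-0.49, adjusted p = 0.00106).

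Diacylglycerol is removed by diacylglycerol kinases and is also read by other proteins with C1 domains. Of 7 tested kinases, 1 was called in KOPN-8, DGKQ, which rose from 16.8 to 22.2 CPM (0.41, adjusted p = 0.0133); the replicate block and the fit without a low-count filter gave 3 higher, the fit to KOPN-8 libraries alone 2, and the block and that fit also 1 lower. It missed the threshold without control replicate 2, control replicate 3, edited replicate 1 or edited replicate 3 (adjusted p = 0.0599, 0.0526, 0.0524 and 0.0559). In 697 the edgeR test called 0 of them, with 0 at an unadjusted p under 0.05 and 0 by DESeq2, but 1 was lower with the replicate block and 1 without control replicate 1. Of 7 tested C1 proteins, 1 rose and 3 fell in KOPN-8 and 1 rose in 697. RASGRP1, the diacylglycerol-driven activator of RAS, fell from 145 to 97.6 CPM in KOPN-8 (-0.58, adjusted p = 2.18e-06), and UNC13C, a vesicle priming factor, rose from 0.196 to 8.11 CPM (5.40, adjusted p = 1.17e-08). The UNC13C control level rests on 9 counts, so the size of its change is uncertain. It ran from 4.8 to 6.07 with 1 KOPN-8 library left out. UNC13D, which primes granule release, rose from 32.2 to 44.6 CPM in 697 (0.47, adjusted p = 0.00108).

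The kinases and chaperones that mature protein kinase C, with its phosphatases, gave 3 higher and 3 lower of 14 in KOPN-8 (1 higher without control replicate 1, edited replicate 1 or edited replicate 2) and 1 higher in 697. MTOR, the kinase of the complex that phosphorylates the tail, rose from 177 to 219 CPM (0.31, adjusted p = 0.0044) in KOPN-8. PDPK1, which phosphorylates the activation loop, rose from 46.9 to 55.0 CPM (0.23, adjusted p = 0.0239), and missed the threshold without control replicate 1, control replicate 2, edited replicate 1 or edited replicate 2 (adjusted p = 0.101, 0.0777, 0.134 and 0.056). In 697, PRR5L, a partner of that complex, rose from 58.7 to 75.2 CPM (0.36, adjusted p = 0.00826), with an adjusted p of 0.0503 without edited replicate 1. Anchoring proteins gave 2 higher and 3 lower of 10 in KOPN-8 and 1 higher in 697. The KOPN-8 count was 1 higher without any one KOPN-8 library other than edited replicate 1, and 1 was lower in 697 without control replicate 1. The scaffold AKAP12 rose in both lines, from 322 to 417 CPM in 697 (0.37, adjusted p = 0.00135) and from 70.1 to 124 CPM in KOPN-8 (0.82, adjusted p = 1.26e-08). The 14-3-3 gene YWHAZ fell from 1500 to 1100 CPM in KOPN-8 (-0.45, adjusted p = 9.04e-06).

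Of 10 tested partners of the atypical isoforms, 1 was called in KOPN-8, RAC1, a small GTPase that fell from 219 to 167 CPM (-0.39, adjusted p = 2.42e-05). There 2 were higher with only the KOPN-8 libraries in the fit, 1 with the replicate block and 1 without edited replicate 3. In 697, 1 was higher, MAP2K5, a kinase that binds atypical isoforms, from 20.9 to 26.6 CPM (0.34, adjusted p = 0.0203). It missed the threshold with only the 697 libraries in the fit (adjusted p = 0.0541) and without control replicate 3, edited replicate 2 or edited replicate 3 (0.0942, 0.0671 and 0.072).

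The arm from protein kinase C to NF-kB gave 3 higher and 5 lower of 11 in KOPN-8 (72.7%) and 1 higher in 697. Leaving out 1 KOPN-8 library at a time gave 1 to 2 higher (1 without control replicate 1, control replicate 2, edited replicate 2 or edited replicate 3) and 3 to 5 lower (3 without control replicate 1). CARD9, an adaptor of myeloid cells, fell from 7.86 to 2.1 CPM in KOPN-8 (-1.87, adjusted p = 3.85e-09). In 697 TAB2, an adaptor of the TAK1 kinase, rose from 127 to 159 CPM (0.32, adjusted p = 0.00227).

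Among 10 tested membrane and cytoskeleton substrates, 4 fell in 697, and 2 rose and 4 fell in KOPN-8. The 697 count was 1 without control replicate 2 and 2 with only the 697 libraries in the fit, and 1 rose with the replicate block and 1 without edited replicate 1. In KOPN-8, 1 rose without control replicate 1, control replicate 2, edited replicate 1 or edited replicate 2. PLEK, the major protein kinase C substrate of platelets, fell from 17.2 to 4.99 CPM in 697 (-1.81, adjusted p = 0.000615), and MARCKSL1, an actin-binding substrate, from 417 to 347 CPM (-0.27, adjusted p = 0.00866; 0.0519 without control replicate 2). In KOPN-8 PEBP1, an inhibitor of RAF, fell from 160 to 105 CPM (-0.60, adjusted p = 1.44e-06) and the spectrin-binding ADD2 from 92.5 to 74.1 CPM (-0.32, adjusted p = 0.00102). Of 10 substrates of protein kinase D, 1 fell in 697, the class IIa deacetylase HDAC9, from 357 to 277 CPM (-0.36, adjusted p = 0.00299). In 697, 1 rose with the replicate block and 1 without control replicate 1. In KOPN-8, 1 rose and 3 fell (1 without control replicate 1 or edited replicate 1), with cortactin, CTTN, rising from 1.71 to 5.1 CPM (1.59, adjusted p = 5.72e-06) and the cofilin phosphatase SSH1 falling from 50.3 to 38.0 CPM (-0.40, adjusted p = 0.000539).

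**Figure D4:**
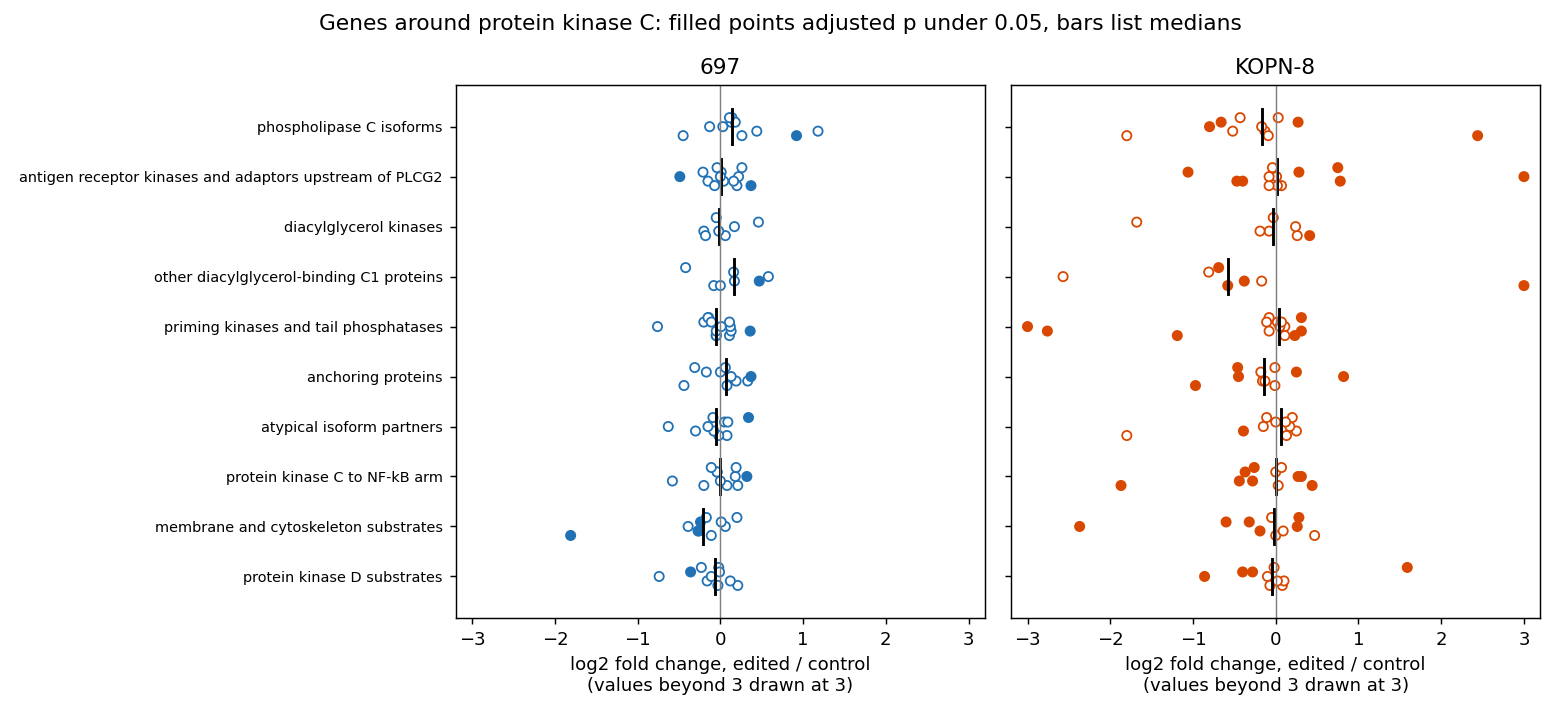
Log2 fold change of edited over control (horizontal axes) for each tested gene of the 10 pathway lists (rows) in 697 and KOPN-8; filled points passed an adjusted p under 0.05, open points did not, black bars are list medians and values beyond 3 are drawn at 3. In 697, 13 points are filled, and in KOPN-8, 46, with the NF-kB arm at 8 of 11.

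The tested genes next to PRKCB on chromosome 16 were set beside it. The nearest 3 on each side had log2 changes in 697 of 0.24 (PALB2), -0.01 (DCTN5) and 0.10 (PLK1) on one flank and -0.09 (RBBP6), 0.06 (TNRC6A) and 0.21 (ARHGAP17) on the other. Of the 5 genes on each side, the edgeR test called 0 of 10 in 697, with 2 at an unadjusted p under 0.05 and 0 by DESeq2, against 9.45% of all genes called. In KOPN-8, 4 of the 10 were called by edgeR and 3 by DESeq2, against 28.7% of all genes called by edgeR, among them the mitotic kinase PLK1, which fell from 189 to 130 CPM (-0.54, edgeR adjusted p = 2.79e-06), and TNRC6A, which rose (0.37, adjusted p = 0.000313).

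Of the 10 genes next to PRKCH on chromosome 14, 3 were called in KOPN-8, near the 28.7% of all genes called there. These were TRMT5 (0.38), HIF1A (0.40) and SNAPC1 (0.36), named after their values were seen, and each was called higher. The median of the 10 was 0.37.

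**Figure D5:**
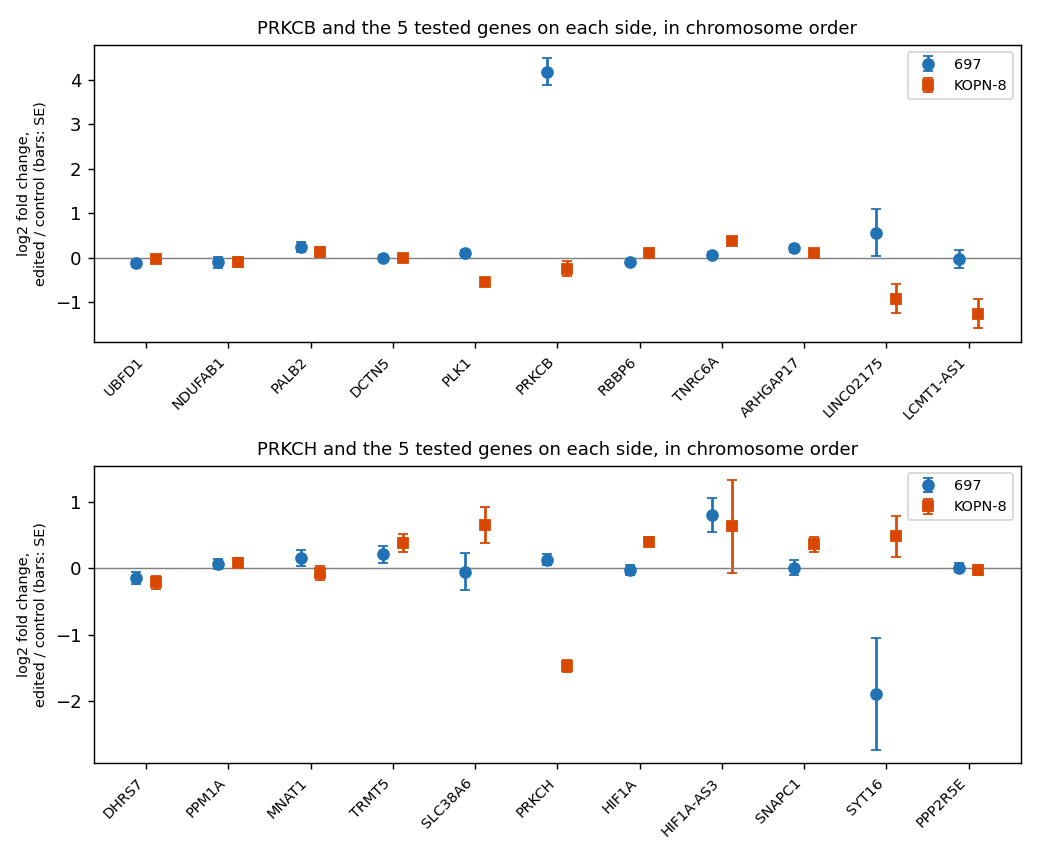
Log2 fold change of edited over control (vertical axes, bars are SEs) of PRKCB (top) and PRKCH (bottom) and the 5 tested genes on each side in chromosome order, in 697 (circles) and KOPN-8 (squares). PRKCB at 4.18 in 697 and PRKCH at -1.47 in KOPN-8 stand apart from their flanks.

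The genes most like PRKCB in log2 CPM over the 12 libraries were CCDC125 (Pearson r = 0.987), RHBDD1 (0.987), TRIM4 (0.977), CREG1 (0.97) and ERCC6L (0.969). The libraries fall into 2 lines, and the correlations are a description of a shared pattern with control 697 low. CCDC125 stood at 0.681, 10.7, 16.2 and 16.6 CPM in control 697, edited 697, control KOPN-8 and edited KOPN-8, and TRIM4, a RING-finger protein, at 0.0453, 14.3, 27.1 and 32.4 CPM. ERCC6L, a mitotic helicase, stood at 5.04, 35.7, 34.4 and 47.9 CPM. CREG1 ran from 4.43 CPM in control 697 to 12.6, 17.4 and 17.7 CPM, and RHBDD1, a rhomboid protease, from 15.4 to 29.7, 34.9 and 31.9 CPM, so that control 697 was the lowest group for each.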

How the data were processed

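Stranded, poly-A-selected RNA-seq libraries were counted per gene. The submitters' processing notes name Trimmomatic, STAR, DESeq2 and hg19, with versions, read counter and annotation not given in the sources used here. As the authors deposited them, raw counts are whole-number reads by gene symbol, with 30589 of 59611 symbols above 0. The authors' normalized table was not used.

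Labels gave the groups and call libraries within them biological replicates; p-values therefore rest on the spread within a clone and within its control. Libraries of a group differed beyond sampling noise (chi-square per degree of freedom 2.91 to 10.7). edgeR 4.0.16 under R 4.3.3 fitted all 12 libraries with 1 mean per group, after TMM scaling and filterByExpr by group, and tested contrasts with its robust quasi-likelihood F test. This left 15218 genes with at least 99.88% of each library's counts, all 9 kinase genes among them. Benjamini-Hochberg adjustment ran over all of these genes, and genes were called at an adjusted p under 0.05. Alternatives were DESeq2 1.42.0, other scaling, no filter, only the groups compared, a replicate block and leaving out each library. The scripts were tested on simulated data.

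The members, gene lists and tests were chosen with earlier results of these data known. Named were the 9 genes, their relatives, up to 2 called genes per list and line with the smallest p and a mean of at least 5 CPM, the 5 genes most like PRKCB (log2 of CPM plus 0.5) and 3 neighbours on each side. Results on some genes that this rule named are not reported here. RPKM used exon lengths from a GENCODE annotation of GRCh38, so lengths approximate those of hg19. Gene order was that of RefSeq. Promoter windows are RefSeq's on GRCh38.p14. Counting intervals are exact at 95% and, like the floor of 3 counts, cover counting error only; molecular identifiers are not given in the labels.

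Same-numbered 697 libraries deviated together (r = 0.233, 0.411 and 0.183 over 11154 genes, all over 0.1) and count as paired by this correlation only; the main fit left all libraries unpaired, and the replicate block is an alternative. In KOPN-8 the values were 0.0962, 0.102 and 0.14, and its numbers were not treated as pairs.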

Additional observations from a re-analysis of the deposited data

Results flagged for a closer look

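PRKCA, PRKCE and PRKD2 changed in opposite directions in the lines, with no overlap of control and edited ranges in either line. Over all genes, ranges lay apart for 24.1% in 697 and 45.1% in KOPN-8. The share of all genes with opposite directions and ranges apart in both lines was not computed, so nothing is read from how many genes did so. The gap was narrow for PRKCA in 697, where the ranges met at 66.5 CPM, and for PRKD2 in KOPN-8 (165 against 166 CPM). The KOPN-8 change minus the 697 change was -0.85 for PRKCA, -0.41 for PRKCE and 0.67 for PRKD2 on the log2 scale, and these differences were not tested because the 697 change entered the choice of genes.

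For 19 other genes named above, the edgeR quasi-likelihood test of the KOPN-8 change minus the 697 change passed an adjusted p of 0.05. Most of these genes were named for a small p in 1 line, which favours a difference between the lines, so nothing is read from their number. In the receptor and phospholipase lists the differences were -0.83 for PLCG1 (adjusted p = 2.68e-06), 0.50 for CD79A (0.00801), -0.35 for BLNK (0.0252) and 0.80 for PIK3AP1 (1.13e-06). Among diacylglycerol kinases and C1 proteins they were 0.58 for DGKQ (0.0313), -0.84 for UNC13D (1.86e-05) and -0.49 for RASGRP1 (0.0019). Among maturation, anchoring and polarity partners they were -3.12 for PRR5L (0.000487; in KOPN-8 it rests on 22 control and 3 edited counts, or 0.468 and 0.0546 CPM), 0.44 for AKAP12 (0.00397), -0.57 for YWHAZ (6.01e-05), -0.45 for MAP2K5 (0.0175) and -0.30 for RAC1 (0.0144). AKAP12 rose in both lines and by more in KOPN-8.

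In the NF-kB arm CARD9 differed by -2.08 (4.56e-08). Among substrates the differences were 0.36 for MARCKSL1 (0.00614), -0.36 for PEBP1 (0.0187), -0.33 for ADD2 (0.0179), 1.82 for CTTN (4.22e-05) and -0.39 for SSH1 (0.0305). The related kinase PKN3 differed by -0.67 (0.0042).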

How the results depend on the processing

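With the replicate block, 2319 genes were called in 697 against 1438, and 11 pathway genes were called higher there against 7 and 9 lower against 6; in KOPN-8 the block changed no call among the 9 kinase genes. Leaving out 1 library at a time gave 0 to 1 kinase gene called higher in KOPN-8 (PRKD2, main value 1) and 3 to 9 pathway genes called lower in 697 (main value 6, the 3 without control replicate 2). In KOPN-8 it gave 13 to 15 pathway genes called higher (main value 19) and 22 to 26 called lower (main value 27). The baseline difference of PRKCD, 0.02 and not past the threshold, turned to -0.001 with DESeq2, -0.0011 with DESeq2 size factors in edgeR, -0.074 with upper-quartile scaling and ran from -0.0406 to 0.0785 with 1 library left out. PRKCQ, PRKD2, DGKQ, PDPK1, MAP2K5, MARCKSL1 and PRR5L lost their calls as stated beside them. The 7 called baseline differences kept direction and call under every alternative run, as did the falls of PRKCA, PRKCE, PRKCH and PRKCI in KOPN-8. Depth limits PRKCB in control 697, PRKCZ and PRR5L in KOPN-8, and UNC13C in control KOPN-8.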
